A study of Homo sapiens with 6 samples.

Results

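The MITF/TFE transcription factors MITF, TFEB, TFE3 and TFEC were followed in RNA-seq counts of SU-CCS-1, a clear cell sarcoma (CCS) line that carries the EWSR1::ATF1 fusion gene (EA1). The members were taken by gene name: of the 4, MITF, TFEB and TFE3 were among the 18118 genes counted, all 3 passed the filter on low counts that left 14571 genes, and counts of TFEC were not analysed here. The 6 libraries form 3 groups of 2. Each well received 5 pmol of siRNA for 48 h, which was a non-targeting control (siNeg1), a siRNA against EA1 (siEA1-1) or another EA1 siRNA (siEA1-2). The comparison asks which genes depend on EA1 in these tumor cells. All groups share 1 cell line with its fusion, no line lacking EA1 is included, and the methods name a single catalogue siRNA against EA1 where the labels name a pair. The labels do not say whether replicates came from separate cultures, so the p values measure the spread between these libraries, which may be technical.

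MITF, TFEB, TFE3 and TFEC are basic helix-loop-helix leucine zipper proteins that bind E-box sequences as homodimers or as dimers with each other. MITF is the lineage factor of melanocytes and drives pigment genes, and its melanocyte start is known to be activated by SOX10, PAX3 and by CREB family proteins at a cAMP response element (CRE). TFEB and TFE3 switch on genes of lysosomes and autophagy, and are held in the cytoplasm when the kinase complex mTORC1, recruited by Rag GTPases and folliculin, phosphorylates them. ATF1, whose DNA-binding domain is retained in EA1, is itself a CREB family protein that binds the CRE.

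Because that domain reads the CRE, the sequence before the member start sites is shown for the melanocyte start of MITF, for its most upstream start and for 1 start each of TFEB and TFE3. Each is the 250 bases before a RefSeq start on GRCh38.p14, read on the gene strand: the melanocyte start of MITF at chr3:69936342-69936591 (+), the upstream start at chr3:69739214-69739463 (+), TFEB at chr6:41735609-41735858 (-) and TFE3 at chrX:49043358-49043607 (-). Capitals mark a full CRE (TGACGTCA), CRE core (TGACG or CGTCA) or AP1 site (TGAGTCA or TGACTCA). The E-boxes CACGTG and CATGTG were searched as well. All were searched on both strands, and a full CRE also holds CRE cores.
MITF melanocyte start: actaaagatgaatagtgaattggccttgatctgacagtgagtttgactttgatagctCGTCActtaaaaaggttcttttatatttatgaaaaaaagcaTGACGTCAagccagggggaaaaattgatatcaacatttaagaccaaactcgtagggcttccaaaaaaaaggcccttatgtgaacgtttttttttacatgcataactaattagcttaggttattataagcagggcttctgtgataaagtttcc
MITF upstream start: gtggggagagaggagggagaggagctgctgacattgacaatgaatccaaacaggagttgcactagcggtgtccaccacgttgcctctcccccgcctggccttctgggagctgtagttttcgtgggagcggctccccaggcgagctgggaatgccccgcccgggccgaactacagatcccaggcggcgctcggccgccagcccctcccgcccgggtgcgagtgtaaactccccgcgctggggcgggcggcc
TFEB: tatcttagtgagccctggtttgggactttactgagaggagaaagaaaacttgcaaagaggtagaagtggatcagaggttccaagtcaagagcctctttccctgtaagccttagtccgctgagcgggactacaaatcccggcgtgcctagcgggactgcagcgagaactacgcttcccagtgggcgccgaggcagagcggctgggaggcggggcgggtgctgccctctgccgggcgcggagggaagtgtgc
TFE3: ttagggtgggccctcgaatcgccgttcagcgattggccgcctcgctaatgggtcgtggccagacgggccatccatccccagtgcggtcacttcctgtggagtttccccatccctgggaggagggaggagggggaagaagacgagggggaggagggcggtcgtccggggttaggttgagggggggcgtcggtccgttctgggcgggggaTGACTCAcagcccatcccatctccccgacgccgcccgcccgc

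The melanocyte start of MITF held a full CRE beginning 152 bases before the start and a further CRE core beginning 193 bases before it. A full CRE was found in 1.85% of 35116 RefSeq windows of 300 bases (250 before and 50 after the start), a CRE core in 24.6%, an AP1 site in 4.95%, CACGTG in 7.26% and CATGTG in 11.1%. The window of TFE3 held 1 AP1 site beginning 42 bases before the start. None of these motifs was in the other windows of MITF, in those of TFEB or in those of TFEC. These are matches of letters, and the counts per gene do not show which MITF start was used.

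Libraries held 5942808 to 7599305 counts, and replicates correlated at 0.977 to 0.983 (Pearson, log2 CPM across genes, which are not independent replicates). ATF1, whose reads come from the wild-type gene and from the fusion, was 82.2 and 87.4 CPM in the control, 21.2 and 20.3 CPM with siEA1-1, and 21.7 and 22.3 CPM with siEA1-2. Fusion and wild-type ATF1 cannot be told apart in these counts, so the effect of lowering the fusion cannot be told apart from that of lowering wild-type ATF1. EWSR1, the other fusion partner, was 198 and 233 CPM, 195 and 203 CPM, and 221 and 198 CPM, with overlap between the groups. Of the melanocyte markers, all 7 were measured and summed to 2074–2369 CPM in the control, 6868–7010 CPM with siEA1-1 and 6261–10794 CPM with siEA1-2. Of the other markers, only 2 of 8 for macrophages, 2 of 6 for epithelium, 2 of 4 for endothelium and 0 of 6 for muscle were among the genes counted. Those of macrophages, epithelium and endothelium summed to at most 6.67 CPM in every library. The fibroblast markers COL1A1 and LUM, 2 of 6 on that list, summed to 2.69–3.44 CPM in the control, 8.87–11.9 CPM with siEA1-1 and 12.9–22.9 CPM with siEA1-2, and their part in the results below was not tested.

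MITF (ENSG00000187098, chr3:69739456-69968336, plus strand, hg38) rose after knockdown of EA1. It was 636 and 671 CPM in the control libraries, 1083 and 1126 CPM with siEA1-1, and 1175 and 1118 CPM with siEA1-2. All 4 knockdown libraries lay above both control libraries. The group means were 654 ± 24.7, 1105 ± 30.4 and 1146 ± 39.9 CPM (SD, n = 2 each). The log2 fold change (log2FC, coded throughout as knockdown minus control, so that a positive value is higher after knockdown) was 0.76 with siEA1-1 (SE 0.10, 95% interval 0.53 to 0.99, edgeR padj = 1.49e-04) and 0.81 with siEA1-2 (SE 0.10, interval 0.58 to 1.04, edgeR padj = 1.13e-04). These are 1.69-fold and 1.75-fold. Among all genes ordered by raw count, MITF stood at rank 137 and 124 in the control and between 58 and 66 in the knockdown libraries.

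TFEB (ENSG00000112561, chr6:41683978-41736259, minus strand, hg38), a main regulator of lysosome genes, rose from a low level. Its raw counts were 17 and 13 in the control, 35 and 41 with siEA1-1, and 44 and 47 with siEA1-2, or 2.54 and 1.67, 4.98 and 6.75, and 7.83 and 6.60 CPM. Again no knockdown library overlapped the control. The log2FC was 1.48 with siEA1-1 (SE 0.39, interval 0.63 to 2.32, edgeR padj = 0.00995) and 1.77 with siEA1-2 (SE 0.38, interval 0.94 to 2.61, edgeR padj = 0.00357), or 2.78-fold and 3.42-fold. The call with siEA1-1 was lost without siNeg1 replicate 2 (log2FC 1.16, edgeR padj = 0.0840) and without siEA1-1 replicate 2 (1.22, edgeR padj = 0.0908), and a count of this size leaves wide intervals.

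TFE3 (ENSG00000068323, chrX:49028726-49043410, minus strand, hg38), which shares its targets with TFEB in many cells, did not pass the test. It was 24.7 and 22.0 CPM in the control, 22.6 and 27.3 CPM with siEA1-1, and 26.0 and 21.8 CPM with siEA1-2. The 3 groups overlapped. The log2FC was 0.10 with siEA1-1 (interval -0.29 to 0.48, edgeR padj = 0.701) and 0.03 with siEA1-2 (interval -0.36 to 0.42, edgeR padj = 0.915), and its sign turned when single libraries were left out (range -0.065 to 0.23 with siEA1-1 and -0.12 to 0.12 with siEA1-2).

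**Figure D1:**
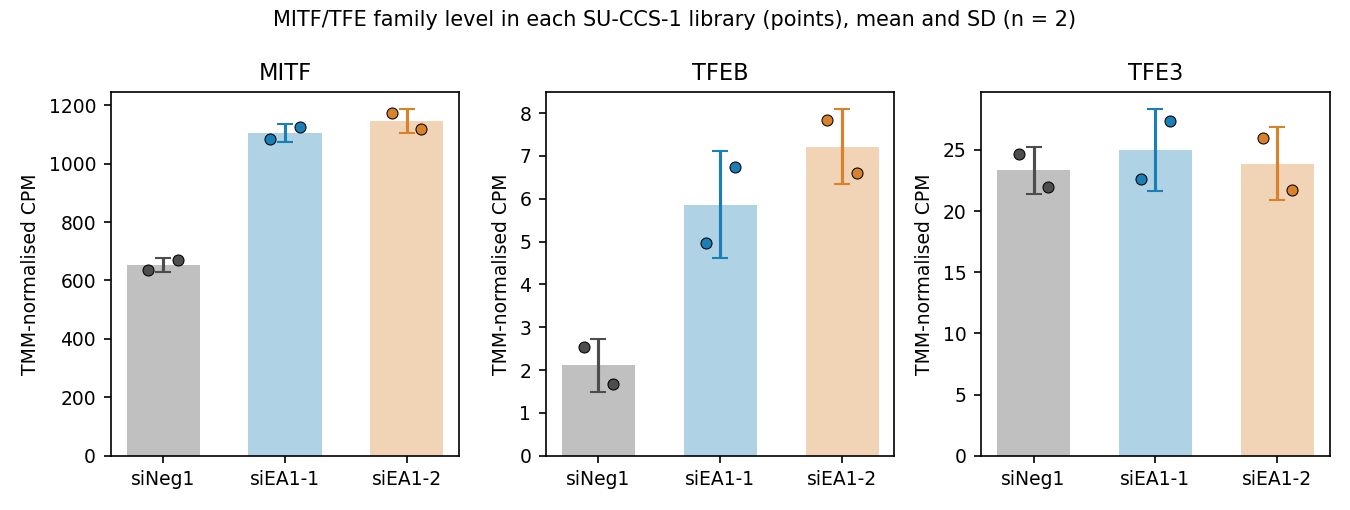
TMM-normalised CPM (y axis, from 0, a separate scale for each gene) of MITF, TFEB and TFE3 in the control (siNeg1) and in cells given either EA1 siRNA. Points are libraries, bars are means and error bars are the SD of 2 libraries. The knockdown libraries of MITF (1083 to 1175 CPM) and TFEB (4.98 to 7.83 CPM) lie above both control libraries, and those of TFE3 (21.8 to 27.3 CPM) overlap the control.

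Across all genes tested, 19.9% were called higher and 20.3% lower with siEA1-1, and 18.5% higher and 18.2% lower with siEA1-2 (edgeR padj under 0.05). Both contrasts use the same control libraries, so they are not independent. With each EA1 siRNA, 2 of the 3 members were called higher and 0 lower by edgeR (0 at an unadjusted p under 0.05 and 0 by DESeq2), against 14.8% of all genes called higher with each and 15.1% called lower with each. All 4 knockdown libraries lay above both control libraries for 28.1% of genes. With the mean of both EA1 siRNAs as the contrast, where 21.5% of genes were called higher and 22.1% lower, the log2FC was 0.78 for MITF (edgeR padj = 3.97e-05), 1.63 for TFEB (edgeR padj = 0.00260) and 0.06 for TFE3 (edgeR padj = 0.768).

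The members did not differ detectably between siEA1-1 and siEA1-2, a contrast in which 0.796% of genes were called higher and 1.44% lower with siEA1-1. The log2FC of siEA1-1 minus siEA1-2 was -0.05 for MITF (interval -0.28 to 0.17, edgeR padj = 0.858), -0.30 for TFEB (interval -1.05 to 0.45, edgeR padj = 0.731) and 0.07 for TFE3 (interval -0.32 to 0.46, edgeR padj = 0.903). For TFEB, a difference of up to 1.05 on the log2 scale lies within that interval.

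**Figure D2:**
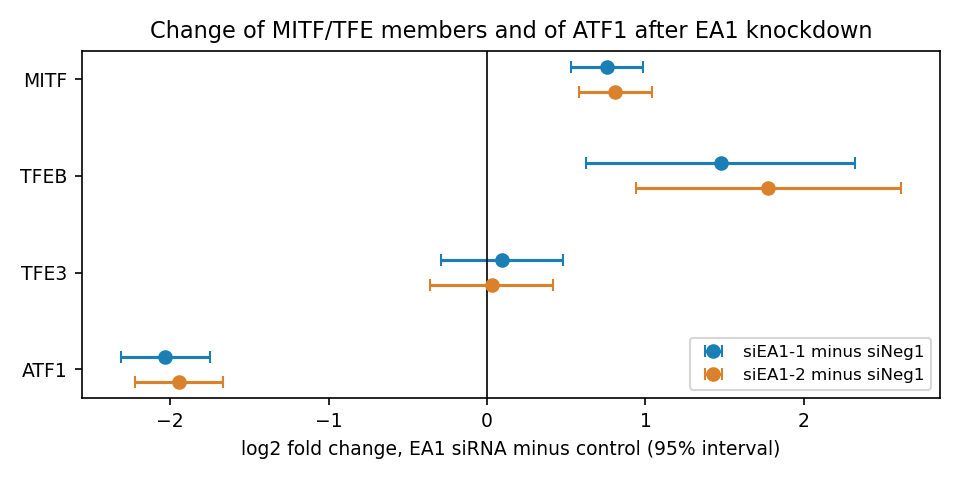
Log2 fold change with its 95% interval (x axis, EA1 siRNA minus siNeg1) of MITF, TFEB, TFE3 and, for reference, ATF1, with 1 point for each EA1 siRNA. The intervals of MITF and TFEB lie above 0 (lowest bound 0.53), those of TFE3 span 0 and those of ATF1 lie below it.

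Per kilobase of exon, the level order was MITF, TFE3, TFEB in every group, with gaps far larger than the spread between replicates. In the control, MITF was 88.1 ± 3.32, TFE3 5.55 ± 0.456 and TFEB 0.314 ± 0.0918 CPM per kb (SD, n = 2). MITF was at rank 290 of 14532 genes with an exon length, TFE3 at 6911 and TFEB at 13713. With siEA1-1 the levels were 149 ± 4.10, 5.94 ± 0.794 and 0.872 ± 0.187 CPM per kb, and with siEA1-2 155 ± 5.38, 5.67 ± 0.711 and 1.07 ± 0.130 CPM per kb. Of the raw counts of the 3 members together, MITF took 95.9% and 96.6% in the control and 97.1% to 97.5% after knockdown.

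Ratios between members within a library do not depend on library size. The log2 ratio of MITF to TFE3 counts was 4.69 and 4.93 in the control, 5.58 and 5.36 with siEA1-1, and 5.50 and 5.68 with siEA1-2, a mean rise of 0.72 with no overlap. The log2 ratio of TFEB to TFE3 counts rose by a mean of 1.58 and that of TFEB to MITF by 0.86, also with no overlap between 2 control and 4 knockdown libraries. An exact two-sided permutation test gave p = 0.133 for each of the 3 ratios (0.133 after Benjamini-Hochberg adjustment), which is the smallest p this design allows. Any ratio with no overlap would give it, so the test adds nothing to the lack of overlap. The 3 ratios share their members and are not independent, and ratios of other gene pairs were not computed.

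The genes whose pattern over the 6 libraries was closest to MITF were UBB (ubiquitin), GAB2, MAPKAP1, GULP1 and C5orf15, with a root mean square difference of 0.0265 to 0.0422 on the log2 scale relative to the control mean, among 12965 candidates. Closest to TFEB were PDLIM1P4, ALDH1B1, KCNIP3, TUFT1 and GABRA5, at the larger distances of 0.124 to 0.162. Closest to TFE3 were PRDM4, ZBTB26, RPS14, POMP and EED, at 0.0321 to 0.0523. UBB, RPS14 and the pseudogene PDLIM1P4 have near-identical copies in the genome and their counts are uncertain.

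The known activators of MITF were measured next. Of 16 on the list, 13 were tested, 4 rose with each EA1 siRNA (30.8%, against 14.8% of all genes) and 0 fell with each by edgeR (1 at an unadjusted p under 0.05 and 0 by DESeq2), against 15.1% of all genes, with a median log2FC of 0.18 and 0.21 where that of all genes was 0.02 and 1.42e-04. EDNRB, the endothelin receptor upstream of MITF in melanocytes, was 262 and 288 CPM in the control, 1767 and 1868 CPM with siEA1-1, and 1946 and 1324 CPM with siEA1-2 (log2FC 2.73 and 2.57). It is also counted among the melanocyte targets of MITF below. CREB1, the paralogue of ATF1 that binds the CRE, was 40.9 and 46.0 CPM in the control, 110 and 110 CPM with siEA1-1, and 104 and 107 CPM with siEA1-2 (log2FC 1.34 and 1.28). Neither gene overlapped the control in any library. The catalytic kinase A subunit PRKACB (0.33 and 0.45) and β-catenin, CTNNB1 (0.32 and 0.31), rose by less. SOX10, a direct activator of MITF, did not pass the test at 0.09 and 0.23 (edgeR padj = 0.522 and 0.125), and PAX3 was not analysed here. MC1R, named here after its values were seen, had the lowest values of the list (-1.87 and -1.67). It was called lower with siEA1-1 (edgeR padj = 0.0330) and not with siEA1-2 (edgeR padj = 0.0534). The count of 4 fell to 2 without siNeg1 replicate 1, without siNeg1 replicate 2, without siEA1-1 replicate 1 and without siEA1-1 replicate 2, the calls lost each time being among those of CTNNB1 (edgeR padj up to 0.329) and PRKACB (up to 0.366). The count of genes lower with each was 1 without siEA1-2 replicate 1.

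Of 10 known repressors of MITF, 8 were tested, 4 fell with each EA1 siRNA, where 15.1% of all genes did, and 0 rose with either by edgeR (0 at an unadjusted p under 0.05 and 0 by DESeq2), with a median log2FC of -0.44 and -0.60. ZEB1, a zinc finger repressor, was 17.2 and 20.3 CPM in the control, 9.95 and 10.5 CPM with siEA1-1, and 14.6 and 9.97 CPM with siEA1-2 (log2FC -0.88 and -0.63). POU3F2, a POU factor of the low-MITF state in melanoma, was 34.1 and 27.9 CPM in the control, 20.5 and 18.3 CPM with siEA1-1, and 21.4 and 17.7 CPM with siEA1-2 (-0.67 and -0.67). All knockdown libraries of both genes lay below the control. The salt-inducible kinases SIK2 (-0.41 and -0.63) and SIK3 (-0.46 and -0.57), which keep the CREB coactivators of the CRTC family out of the nucleus, fell too. These calls rest on small changes: the count was 0 without siNeg1 replicate 1, 1 without siEA1-1 replicate 1 or without siEA1-1 replicate 2, 2 without siNeg1 replicate 2 or without siEA1-2 replicate 2, and 1 by DESeq2, while each of the 4 genes stayed lower in direction.

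The mTORC1, Rag and folliculin genes that set where TFEB and TFE3 reside were mixed. All 42 were tested, 12 rose (28.6%, against 14.8% of all genes) and 3 fell (7.14%, against 15.1%) with each EA1 siRNA, with a median log2FC of 0.23 and 0.20. TBC1D7, a subunit of the TSC complex that restrains mTORC1, was 68.3 and 66.1 CPM in the control, 154 and 148 CPM with siEA1-1, and 287 and 176 CPM with siEA1-2 (log2FC 1.17 and 1.78). RHEB, the GTPase that activates mTORC1 and is switched off by that complex, was 274 and 291 CPM in the control, 135 and 127 CPM with siEA1-1, and 152 and 150 CPM with siEA1-2 (-1.10 and -0.91). For both genes every knockdown library lay outside the control range.

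The folliculin partner FNIP2 rose from 202 and 199 CPM in the control to 404 and 395 CPM with siEA1-1 and to 453 and 428 CPM with siEA1-2 (log2FC 1.00 and 1.14), and FNIP1 rose by 0.49 and 0.50. Folliculin itself, FLCN, was called with siEA1-1 (0.80, edgeR padj = 0.00161) and not with siEA1-2 (0.21, edgeR padj = 0.331). The Rag GTPases RRAGC (0.23 and 0.37) and RRAGD (0.17 and 0.69) were called with siEA1-2 and not with siEA1-1 (edgeR padj = 0.155 and 0.299). The test of siEA1-1 against siEA1-2 gave an edgeR padj of 0.0784 for FLCN, 0.640 for RRAGC and 0.0542 for RRAGD, and those of FLCN and RRAGD fell under 0.05 (0.0303 and 0.00499) with the replicate number as a block. PPP3CA, the catalytic subunit of calcineurin, which dephosphorylates TFEB (1.03 and 0.84), and the lysosomal calcium channel MCOLN1 (0.66 and 0.86) rose. The adaptor YWHAG (-0.51 and -0.52), of a family that retains phosphorylated TFEB in the cytoplasm, and the nuclear exporter XPO1 (-0.50 and -0.38) fell. Other adaptors of that family, named here after their values were seen, did not fall with YWHAG. YWHAB (0.39 and 0.37) and YWHAZ (0.33 and 0.44) were called higher with each EA1 siRNA, and YWHAE, YWHAH and YWHAQ were called with neither.

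When single libraries were left out, fewer of all genes were called higher with siEA1-2. Whether a list count fell by more in such fits than the count over all genes was not tested. The higher count in this list fell in these fits and by DESeq2. It was 5 without siEA1-1 replicate 1 or without siEA1-1 replicate 2, 6 without siNeg1 replicate 1 or without siNeg1 replicate 2, 7 without siEA1-2 replicate 1, and 7 by DESeq2. RRAGC kept its siEA1-2 call without siNeg1 replicate 1 and lost it without any of the other 5 libraries in turn (edgeR padj 0.0524 to 0.299), XPO1 lost that call without siNeg1 replicate 2 (edgeR padj = 0.108) and without siEA1-2 replicate 1 (0.0518), and MCOLN1 lost its siEA1-1 call without siEA1-1 replicate 1 (0.0844).

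The melanocyte targets of MITF had the highest median of the 6 lists. Of 38 listed, 37 were tested, 23 rose (62.2%, against 14.8% of all genes) and 5 fell (13.5%, against 15.1%) with each EA1 siRNA, and the median log2FC was 1.41 and 1.39, the same with TRPM1 and SLC45A2 set at their bound against 3 counts. Leaving out a library gave 20 to 24 higher and 5 to 6 lower. TYR, tyrosinase, the first enzyme of melanin synthesis, was 11.5 and 12.7 CPM in the control, 93.4 and 86.8 CPM with siEA1-1, and 136 and 106 CPM with siEA1-2 (log2FC 2.89 and 3.31). TRPM1, a channel gene whose intron encodes a microRNA, had 1 and 0 counts in the control, 84 and 73 with siEA1-1, and 99 and 62 with siEA1-2. SLC45A2, a melanosome transporter, had 1 and 1 counts, then 10 and 12, and 20 and 23. TRPM1 and SLC45A2 went from at or under the floor of 3 counts per library to above it in every knockdown library. MLANA, a melanosome protein, had 4 and 0 counts in the control, 16 and 11 with siEA1-1, and 24 and 15 with siEA1-2. Its siEA1-1 call was lost without siNeg1 replicate 2 (edgeR padj = 0.174), without siEA1-1 replicate 1 (0.130) or without siEA1-1 replicate 2 (0.0763), and its siEA1-2 call without siNeg1 replicate 2 (0.0698) or without siEA1-2 replicate 1 (0.0574).

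The 5 targets that fell with each EA1 siRNA are not pigment enzymes. BCL2, which protects against apoptosis, was 119 and 127 CPM in the control, 43.7 and 48.9 CPM with siEA1-1, and 32.8 and 45.2 CPM with siEA1-2 (log2FC -1.41 and -1.65). IRF4, a partner of MITF at the TYR gene, was 866 and 769 CPM in the control, 428 and 385 CPM with siEA1-1, and 545 and 581 CPM with siEA1-2 (-1.01 and -0.54). Neither overlapped the control. The cell cycle inhibitor CDKN1A (-0.87 and -0.85), the hypoxia factor HIF1A (-0.87 and -0.57) and DIAPH1 (-0.71 and -0.57), an actin nucleator named here after its values were seen, also fell. The list shares 2 genes, EDNRB and MC1R, with the activators of MITF and 5 genes with the melanocyte markers. In bulk RNA more cells of a kind and more RNA per cell cannot be told apart.

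**Figure D3:**
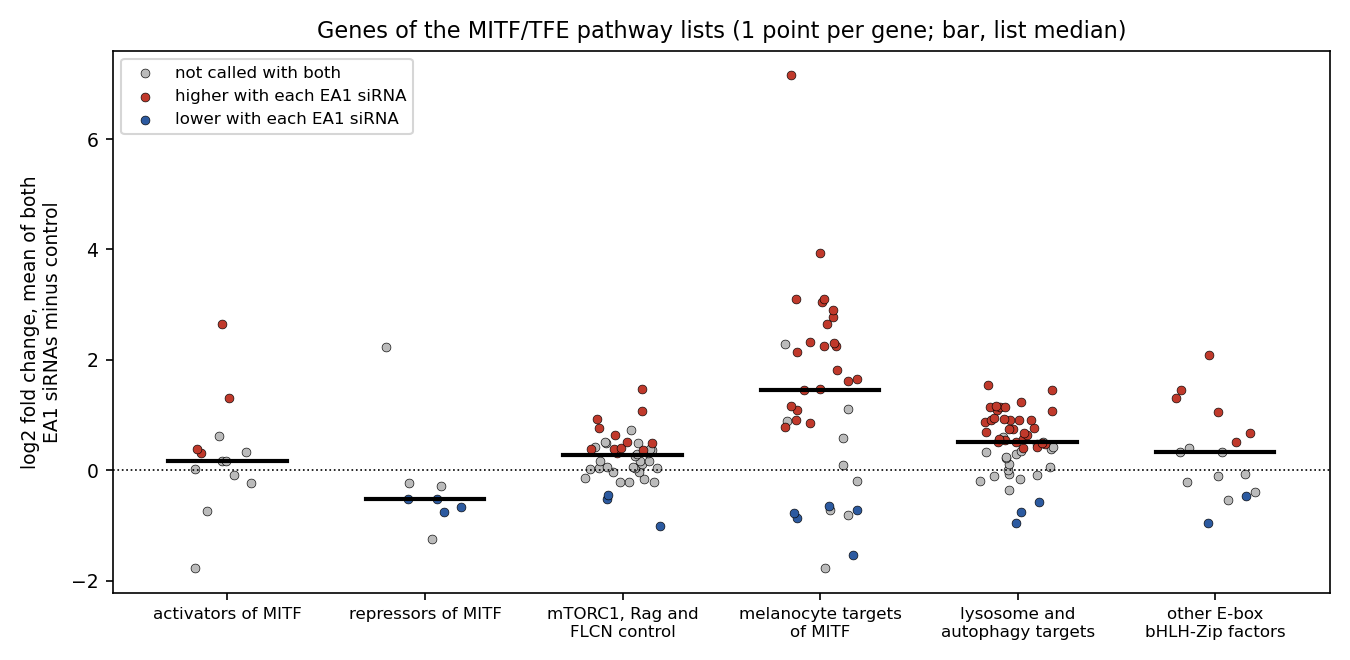
Log2 fold change of the mean of both EA1 siRNAs minus siNeg1 (y axis) for every tested gene of the 6 lists (x axis), with 1 point per gene and a bar at each list median. Red genes were higher and blue genes lower with each EA1 siRNA (edgeR padj under 0.05), and the highest median, 1.45, is that of the melanocyte targets of MITF. Values of genes with 3 or fewer control counts (TRPM1, SLC45A2, FOXD3) depend on the fit and are no measured folds.

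The lysosome and autophagy targets of TFEB and TFE3 had the second highest median. Of 55 listed, 53 were tested, 31 rose (58.5%, against 14.8% of all genes) and 3 fell (5.66%, against 15.1%) with each EA1 siRNA, with a median log2FC of 0.49 and 0.57. The higher count was 20 without siNeg1 replicate 2 and 23 to 32 without the other libraries in turn. ATP6V1B2, a subunit of the proton pump that acidifies lysosomes, was 99.4 and 86.4 CPM in the control, 284 and 258 CPM with siEA1-1, and 291 and 257 CPM with siEA1-2 (log2FC 1.55 and 1.56). GPNMB, a lysosomal glycoprotein, was 163 and 145 CPM in the control, 454 and 424 CPM with siEA1-1, and 495 and 315 CPM with siEA1-2 (1.51 and 1.39). Both were above the control in all 4 knockdown libraries. NRBF2, of the autophagy lipid kinase complex (1.37 and 1.09), rose as well. It lost its siEA1-2 call without siNeg1 replicate 2 (edgeR padj = 0.0606).

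The 3 genes of this list that fell were VPS8, WIPI1 and ATP6V0B. VPS8, of an endosome tethering complex, was 189 and 208 CPM in the control, 104 and 93.9 CPM with siEA1-1, and 113 and 99.0 CPM with siEA1-2 (log2FC -1.0 and -0.91). WIPI1, a lipid-binding protein of early autophagosomes, fell by 0.85 and 0.67, and ATP6V0B, another proton pump subunit, by 0.52 and 0.62. All knockdown libraries of the 3 genes lay below both control libraries. The lists overlap: 6 lysosome genes are also in the mTORC1 list and 2 in the melanocyte list.

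All 4 knockdown libraries lay above both control libraries for 25 of 37 melanocyte targets, 40 of 53 lysosome and autophagy targets, 18 of 42 mTORC1 genes, 7 of 13 activators and 0 of 8 repressors of MITF, where 28.1% of all genes did. They lay below both for 8 of 37 melanocyte targets, 4 of 53 lysosome and autophagy targets, 6 of 42 mTORC1 genes, 2 of 13 activators and 5 of 8 repressors of MITF, where 27.3% of all genes did.

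Other E-box-binding factors of the same protein class were measured too, and whether they bind the sites of the members was not tested. Of 19, 16 were tested, 6 rose (37.5%, against 14.8% of all genes) and 2 fell (12.5%, against 15.1%) with each EA1 siRNA, with a median log2FC of 0.32 and 0.24, and 9 of 16 had all knockdown libraries above the control and 4 of 16 below it. MXD4, a MAX partner that represses transcription, was 28.6 and 22.2 CPM in the control, 126 and 121 CPM with siEA1-1, and 99.3 and 90.8 CPM with siEA1-2 (log2FC 2.28 and 1.91). MXI1, of the same repressor family (1.54 and 1.36), the nutrient sensor MLXIP (1.35 and 1.27) and the sterol regulator SREBF2 (1.11 and 0.99) rose. TFAP4 (-1.0 and -0.92) and MLX (-0.49 and -0.44), the partner of MLXIP, fell. Without siNeg1 replicate 2 the lower count was 1, since MLX lost its siEA1-2 call (edgeR padj = 0.0588).

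**Figure D4:**
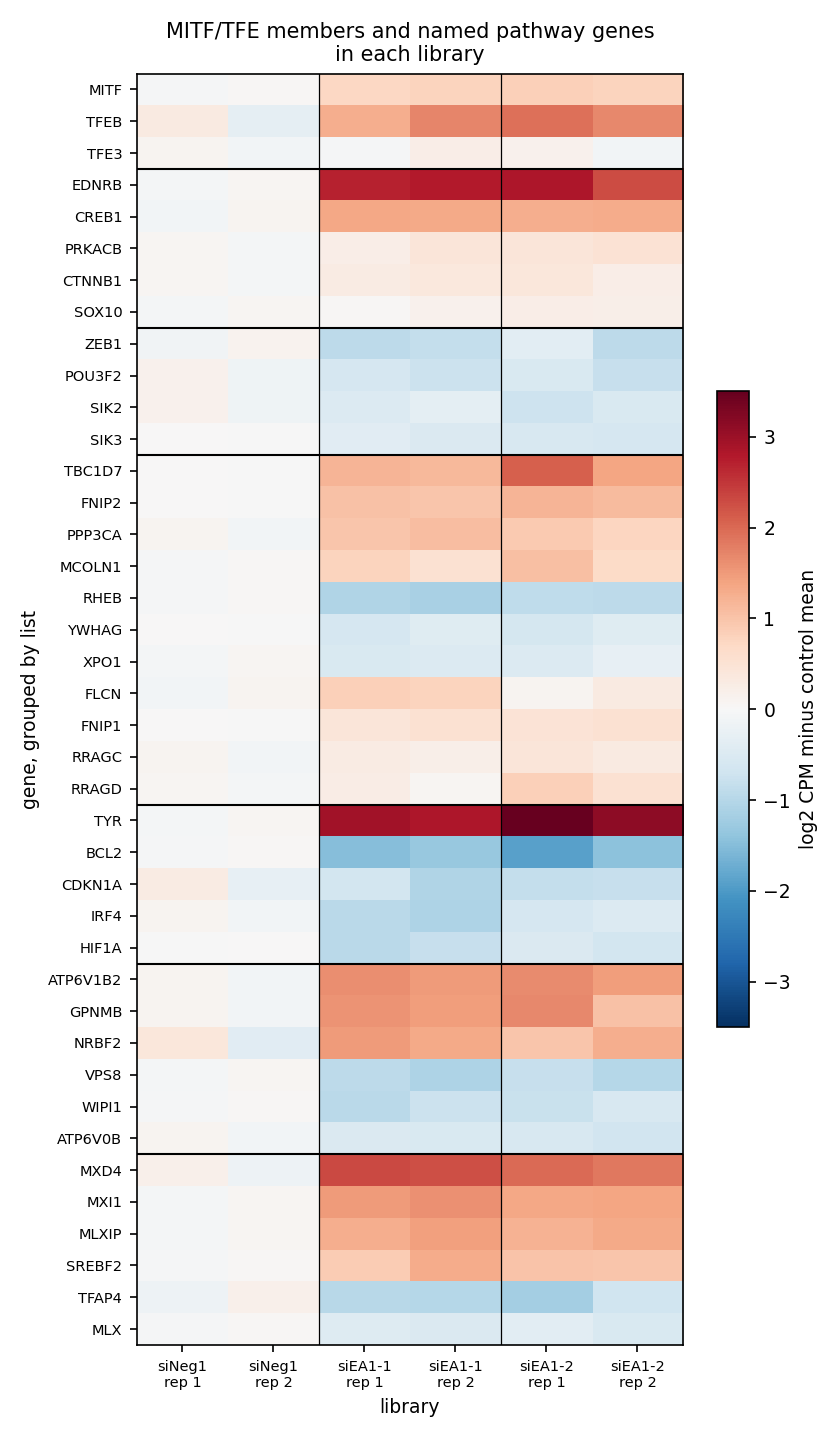
Log2 CPM minus the mean of the 2 control libraries (colour, red higher and blue lower) for the MITF/TFE members and the named list genes (rows, lines separate the lists) in each of the 6 libraries (columns). TRPM1, SLC45A2 and MLANA are left out because their control counts are at most 4. MITF and TFEB are red in all 4 knockdown libraries, and TFE3 stays near 0.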

How the data were processed

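RNA-seq libraries of SU-CCS-1 cells (6, in 3 siRNA groups taken from the sample labels) were analysed. Raw counts per gene and library were deposited by the authors, who had mapped reads by BWA-MEM and used featureCounts 1.6.3 on hg38 (version per the submitters' processing notes), with no normalization or pooling. The annotation and use of strand are not given in the sources used here. BWA-MEM does not model splicing, so reads across exon junctions may be clipped or lost. Genes on the opposite strand overlap the annotated span of MITF (RN7SL418P) and of TFEB (ENSG00000231102). They were not analysed here, and whether their exons overlap those of the members was not established. Where exons overlap, reads counted without strand cannot be told apart from those of the members. Genes without a symbol (2589) were tested but not named, and every gene had at least 6 counts in some library.

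From the deposited counts, edgeR 4.0.16 (R 4.3.3) was run with filterByExpr (minimum count 10, minimum total 15), TMM scaling and the quasi-likelihood test over 3 groups, with Benjamini-Hochberg adjustment over all 14571 genes. A padj under 0.05 was a call. The common biological coefficient of variation was 0.109. At these depths 3 counts are 0.386 to 0.534 CPM, and this floor covers counting error only. CPM values are TMM-scaled. Levels per kb and hg38 coordinates used GENCODE exons. Alternatives were RLE size factors, DESeq2 1.42.0, no filter, a minimum of 10 counts in each library, the replicate number as a block, and each library left out in turn. The methods' DESeq2 without a block guided the model. Replicate numbers come from the labels, and deviations of same-numbered libraries correlated at 0.130 to 0.199, but each comparison has only 2 such pairs, so the numbers were not taken to pair libraries.

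The members and lists were chosen with earlier results of these data known. Named genes are the members, the siRNA targets, the 4 genes of each list with the largest averaged log2FC in each direction among those called with each EA1 siRNA, SOX10, PAX3, CREB1, FLCN, FNIP1, FNIP2, RRAGC and RRAGD in any case, and the 5 genes closest to each member, among those with a symbol and at least 1 CPM in the control. A gene that this rule names is not reported here. Promoter windows from RefSeq matched 66.0% to 78.6% of tested genes in the lysosome, melanocyte and mTORC1 lists, so a comparison of motifs over lists was void and is not given.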

Additional observations from a re-analysis of the deposited data

Results flagged for a closer look

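The effects of the EA1 siRNAs differed from each other for 1 of 37 melanocyte targets and 3 of 53 lysosome and autophagy targets, by the test of siEA1-1 against siEA1-2 across all genes, where 0.796% of genes were called higher and 1.44% lower with siEA1-1. None of them was named by the rule, and they were chosen after their values were seen. RAB32, a GTPase of melanosome transport, was higher than the control with both and by less with siEA1-1 (120 and 116 CPM in the control, 178 and 164 CPM with siEA1-1, 303 and 227 CPM with siEA1-2, log2FC of siEA1-1 minus siEA1-2 -0.63, edgeR padj = 0.0334). The proton pump subunit ATP6V1A was 162 and 168, 181 and 172, and 241 and 243 CPM (-0.45, edgeR padj = 0.0339). Another subunit, ATP6V1E1, was 182 and 182, 126 and 122, and 164 and 165 CPM (-0.41, edgeR padj = 0.0485). MAP1LC3B, the autophagosome protein LC3B, was 63.8 and 61.2, 66.4 and 66.5, and 46.5 and 44.2 CPM (0.55, edgeR padj = 0.0279), and its count is uncertain because of a near-identical copy. All 4 calls were lost without either control library or either siEA1-1 library (edgeR padj 0.0532 to 0.383), that of ATP6V1E1 also without siEA1-2 replicate 2 (0.0514) and that of RAB32 without siEA1-2 replicate 1 (0.0531).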

How the results depend on the processing

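Under the 11 alternatives, MITF stayed called with each EA1 siRNA (log2FC 0.71 to 0.79 and 0.75 to 0.81) and TFEB with siEA1-2 (1.46 to 2.09). TFEB with siEA1-1 ranged from 1.16 to 1.79 over libraries left out and lost its call without siNeg1 replicate 2 and without siEA1-1 replicate 2. TFE3 was not called in any, and over libraries left out ranged from -0.0652 to 0.23 with siEA1-1, -0.119 to 0.12 with siEA1-2, -0.0532 to 0.15 for their mean and -0.0700 to 0.20 between them, so its sign is not fixed. Reversed values of TFE3 were -0.0182 and -0.0652 with siEA1-1, -0.119 and -0.0882 with siEA1-2, -0.0237, -0.0532 and -0.0302 for the mean, and -0.0700 and -0.0504 between the siRNAs. EWSR1 with siEA1-2, not called, ranged from -0.156 over libraries left out and turned to 0.0456 without siNeg1 replicate 2 and to 3.14e-04 without siEA1-2 replicate 2. The cause of these changes was not tested.

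With the replicate number as a block, MITF was 0.76 and 0.81 and TFEB 1.48 and 1.78, with the same calls. Between the siRNAs 323 genes were then higher and 530 lower, and 1 activator of MITF, MC1R, was lower with each. No other count moved by over 1.5 times and no call of a member changed. Of the named genes, the block changed the calls of 5 between the siRNAs, FLCN, IRF4, RRAGD, TBC1D7 and TYR, each then past the threshold (edgeR padj 0.00499 to 0.0454), and 8 other list genes changed there too. DESeq2 gave 330 lower between the siRNAs, 1 repressor lower and 7 mTORC1 genes higher, and RLE size factors 2 activators higher.

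Leaving out single libraries gave 1892 to 3075 genes higher with siEA1-1, 1767 to 2543 with siEA1-2, 2030 to 3146 for the mean, and 13 to 317 higher and 20 to 471 lower between the siRNAs. List counts ranged over 2 to 3 activators higher, 0 to 1 lower, 0 to 4 repressors lower, 5 to 10 mTORC1 genes higher, 20 to 32 lysosome genes higher and 1 to 2 other E-box factors lower. The share of all genes called with each EA1 siRNA is not given for these fits. Whether a list count fell by more than that of all genes was therefore not tested. DESeq2 gave no adjusted p for TFEB between the siRNAs, and at least 10 counts in every library left no value for TRPM1, SLC45A2 and MLANA. With 2 libraries per group, intervals at TFEB's depth span over 1 log2 unit.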

Other observations

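The melanosome transport genes RAB27A, MLPH and MYO5A, which encode a GTPase, its linker and the motor protein they recruit, are in the melanocyte list and were described after their values were seen. RAB27A rose by 1.45 with siEA1-1 and 1.77 with siEA1-2, MLPH by 2.20 and 2.29, and MYO5A by 2.16 and 2.48, on the log2 scale. The pigment enzymes DCT (2.85 and 3.25) and TYRP1 (2.08 and 2.44) rose, and the melanosome fibril protein PMEL rose by 1.99 and 2.30. DCT, TYRP1 and PMEL are of the same list and were likewise described after their values were seen. Of the 37 genes tested in that list, 23 rose and 5 fell with each EA1 siRNA.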
